A study of Caenorhabditis elegans with 4 samples.

Results

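The genes described here encode the folding machinery of the cytosol and the factors that work with it. They were chosen by symbol alone, as every gene named dnj, cct or pfd plus a number, together with hsp-1, hsp-70, hsp-90 (daf-21), hsp-110, sti-1, hsf-1, hsb-1, chn-1 and bag-1. The rule gave 52 genes of the 20478 that the probes of the array name, made up of 29 dnj, 8 cct and 6 pfd genes and the 9 genes named singly. Of these, 49 were tested among 12557 genes in all: 27 dnj, 8 cct, 5 pfd and the 9 singly named genes. Some dnj genes encode proteins of other compartments. Those set apart here are marked where they are described, and the other dnj genes may include more of them.

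Chaperones bind unfolded proteins and keep them from aggregating while they fold. Hsp70 proteins receive their clients from J proteins, which start the ATP cycle of Hsp70, and release them with the help of nucleotide exchange factors, while Hsp90 acts on partly folded clients such as kinases and receptors. The CCT ring folds actin and tubulin, which prefoldin hands to it, and HSF-1 is the transcription factor that raises chaperone expression after heat and other protein damage. In C. elegans, HSF-1 and several of these chaperones are known as determinants of lifespan and of protein aggregation in old animals.

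The samples were 2 groups of wild-type N2 worms, grown at 20 °C and taken at day 7 to 8 of adulthood, with RNA from the whole body. Low MV worms had a maximum velocity, the peak speed of crawling on a plate without food, under 0.22 mm/sec, and high MV worms reached that speed or more. Each group had 2 samples, each on its own single-colour Agilent array. The sources used here do not say whether the 2 samples of a group came from separate cultures, so p-values measure the spread between these samples, which may be technical. Both low MV arrays came from 1 slide and scan and both high MV arrays from another, so slide and group cannot be told apart.

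Between 84.6% and 87.7% of the spots on an array were well above background, and no spot was saturated. Values are given as log2 signal, the log2 of the background-subtracted spot intensity after quantile normalization over the 4 arrays. A fold change is the low MV mean minus the high MV mean on this scale. Each gene was read from its brightest probe that was present, meaning above the dim part of the array on both arrays of at least 1 group. A gene is said to have risen or fallen in low MV worms when limma's adjusted p over all 12557 genes was under 0.05 and the change was over 1.5-fold (0.58 on the log2 scale). By that rule 21.6% of all genes tested rose and 17% fell, or 38.6% in either direction. RNA came from whole worms, so fewer cells of a type and less RNA per cell cannot be told apart.

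Of the 49 chaperone and co-chaperone genes tested, 2 rose in low MV worms and 7 fell, which is 18.4% against 38.6% of all genes tested. The 2 that rose were cct-3, a subunit of the CCT ring, and hsp-70, the heat-inducible Hsp70. The 7 that fell were 5 J protein genes, dnj-26, dnj-2, dnj-28, dnj-3 and dnj-21, the ubiquitin ligase gene chn-1 and the nucleotide exchange factor gene bag-1. Of the other 40 genes, 9 reached the adjusted p but stayed under 1.5-fold. They were dnj-14, dnj-19 and dnj-27, with higher means in low MV worms, and dnj-4, dnj-10, dnj-15, dnj-17, dnj-30 and pfd-4, with lower means. With these, 18 of 49 genes reached the adjusted p, where 60.4% of all genes tested did, and 22 had an unadjusted p under 0.05, or 44.9% against 65.6% of all genes tested. The median fold change was -0.05 on the log2 scale over the 49 genes and 0.01 over all genes tested. The fold changes had an SD of 0.414 over the 49 genes and of 0.829 over all genes tested. Over the 4167 genes tested with a mean signal of 12 or more, where 33 of the 49 lay, the SD was 0.599.

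**Figure D1:**
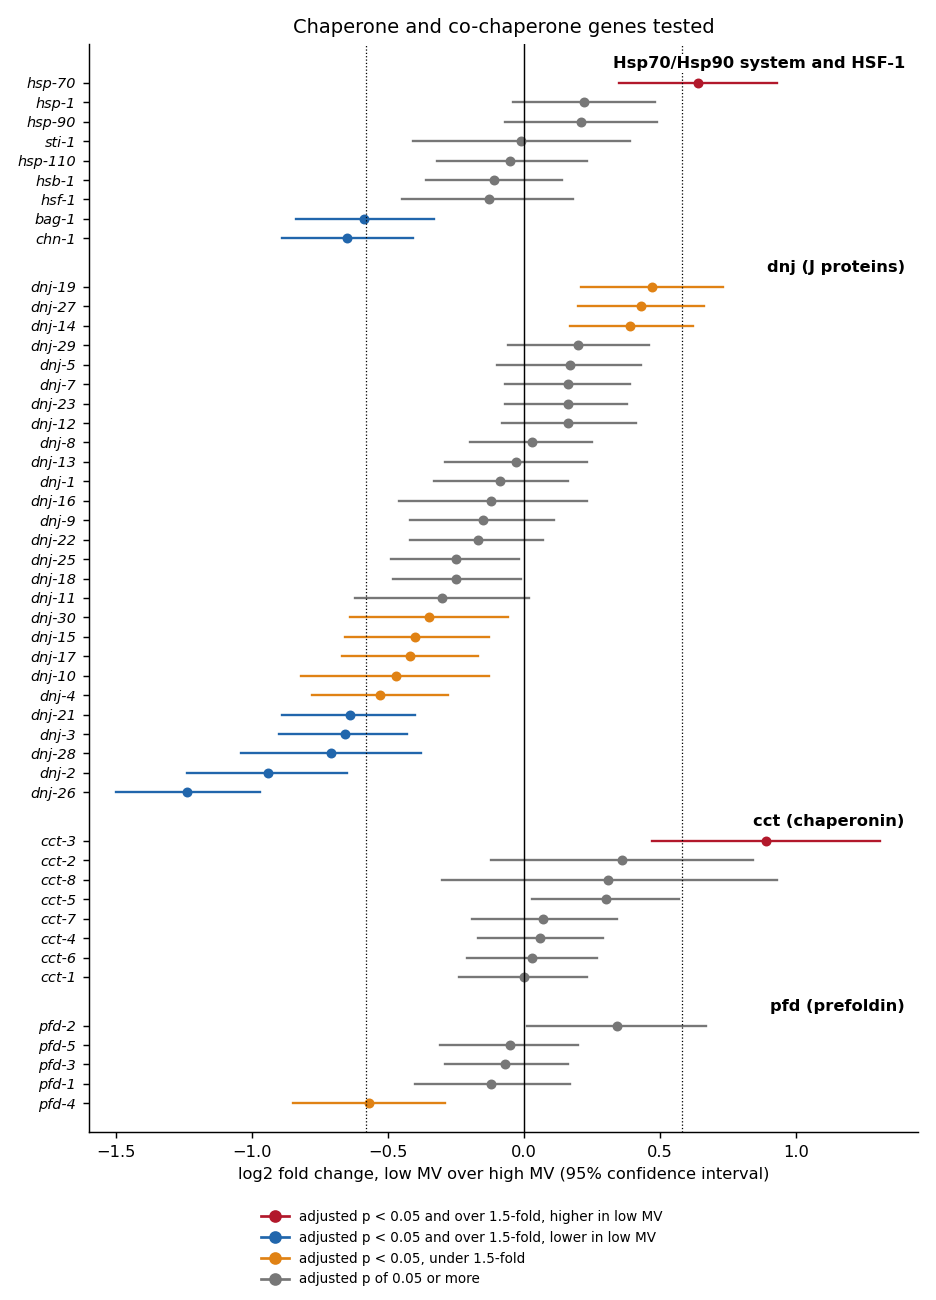
Log2 fold change (x axis, low MV over high MV) of each of the 49 genes tested, with its 95% confidence interval from limma, grouped by class. Red and blue points passed both thresholds, orange points passed the adjusted p alone, and dotted lines mark 0.58 on either side of 0; the fold changes run between -1.24 for dnj-26 and 0.89 for cct-3.

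The arrays of the 2 groups did not overlap for 37 of the 49 genes, with both low MV arrays above both high MV arrays for 17 and below them for 20. This held for 83.5% of all genes tested. The chaperone genes had a median signal of 12.71, against 10.69 over all genes tested, and 33 of the 49 lay at 12 or more. Their median SD between the 2 arrays of a group was 0.0613 in low MV worms and 0.0892 in high MV worms. Over all genes tested it was 0.0651 and 0.104.

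Neither hsf-1 nor its regulator passed the test. The hsf-1 signal was 10.94 and 11.06 in the low MV samples, against 11.01 and 11.26 in the high MV samples. The 2 groups overlapped, with a fold change of -0.13 on the log2 scale (SE 0.12, 95% confidence interval -0.45 to 0.18, limma adjusted p = 0.392). The interval lies within 1.5-fold in either direction, but it measures only the spread between these arrays under quantile normalization. With scaling to the spike-in probes the fold change was -0.54 (limma adjusted p = 0.259), where the median of all genes was -0.39. For hsb-1, whose protein binds HSF-1 and holds it inactive, the signal was 12.72 and 12.72 in the low MV samples and 12.76 and 12.90 in the high MV samples. Its low MV values were both below its high MV values, and its fold change of -0.11 (SE 0.10, adjusted p = 0.36) did not pass.

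Of the Hsp70 genes of the set, hsp-70 rose and hsp-1 did not pass the test. The inducible hsp-70 had a signal of 11.16 and 11.07 in low MV worms, against 10.37 and 10.58 in high MV worms. Both low MV samples were higher, by 0.64 on the log2 scale or 1.56-fold (SE 0.11, limma adjusted p = 0.00636). The difference was 0.54 without high MV replicate 1, which is below the 1.5-fold threshold. It was 0.56 with normexp background correction and 0.28 (adjusted p = 0.586) when the arrays were scaled to the spike-in probes, a setting that moves the median of all genes to -0.39. Over all alternatives its adjusted p ran between 0.00313 and 0.586.

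The constitutive Hsp70 of the cytosol, hsp-1, had a signal of 16.605 and 16.489 in low MV worms and 16.381 and 16.275 in high MV worms. The groups were apart by 0.22 on the log2 scale (SE 0.10, adjusted p = 0.114), and the test was not passed. Its 6 probes gave fold changes of 0.22 to 0.42, none past both thresholds. For hsp-110, a nucleotide exchange factor that takes part in the dissolving of aggregates, the signal was 12.23 and 12.05 in low MV worms and 12.23 and 12.15 in high MV worms. These values overlapped, with a fold change of -0.05 (SE 0.11, 95% confidence interval -0.32 to 0.23, adjusted p = 0.732).

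The genes bag-1 and chn-1 fell. The gene bag-1, which encodes a nucleotide exchange factor of Hsp70, had a signal of 14.68 and 14.78 in low MV worms, against 15.26 and 15.37 in high MV worms. Both low MV samples lay below both high MV samples, with a fold change of -0.59 (1.5-fold, SE 0.10, limma adjusted p = 0.00561). That lies at the edge of the threshold. It was -0.53 without high MV replicate 2 and -0.54 without low MV replicate 1, and under both it no longer passed. The gene chn-1 encodes CHIP, a ubiquitin ligase that marks clients of Hsp70 and Hsp90 for degradation. Its signal was 13.23 and 13.31 in low MV worms, against 13.88 and 13.96 in high MV worms. The fold change was -0.65 (1.57-fold, SE 0.10, adjusted p = 0.00357), and its 3 probes gave -0.79 to -0.49.

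The Hsp90 pair did not pass the test. The hsp-90 signal was 17.40 and 17.60 in low MV worms and 17.24 and 17.34 in high MV worms. Its low MV values were both higher, with a fold change of 0.21 (SE 0.11, adjusted p = 0.158), and its 4 probes gave fold changes of 0.08 to 0.52. The dimmest probes, at 0.52 and 0.51, reached the adjusted p in limma (0.00625 and 0.00785) but stayed under 1.5-fold. The mean of the probes of hsp-90 gave 0.33 (limma adjusted p = 0.0256), also under 1.5-fold. The gene sti-1 encodes the Hop protein, which joins Hsp70 to Hsp90. It had a signal of 11.244 and 11.148 in low MV worms and 11.412 and 10.999 in high MV worms. Its high MV samples lay on either side of both low MV samples, with a fold change of -0.01 (SE 0.16, 95% confidence interval -0.41 to 0.39, adjusted p = 0.962).

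**Figure D2:**
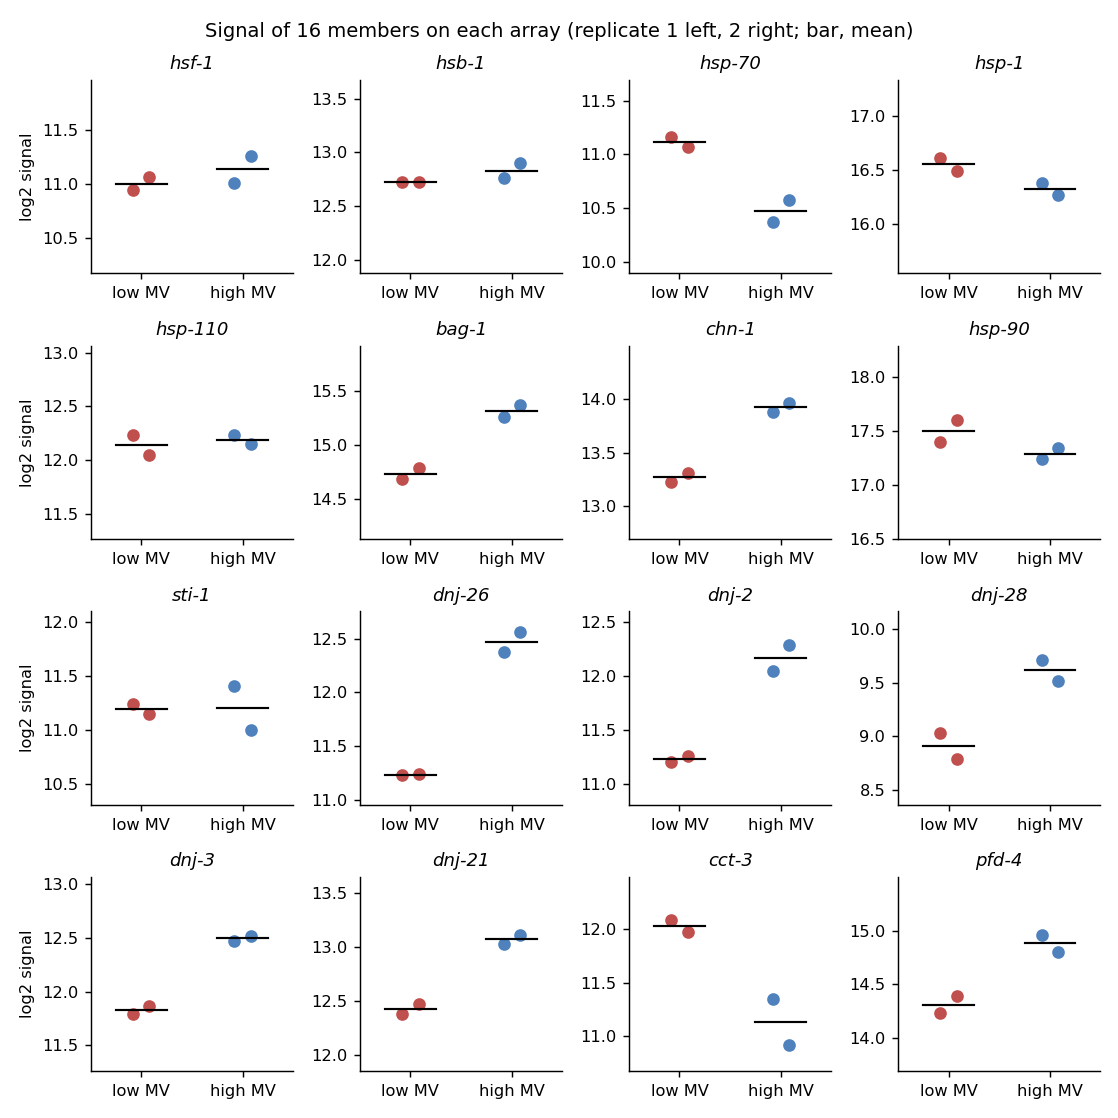
Log2 signal (y axis) on each array for 16 genes: the 9 singly named genes, the 5 dnj genes and cct-3 that passed the test, and pfd-4, the pfd gene with the largest change. Low MV arrays are red and on the left, high MV arrays blue and on the right, the bar is the group mean, and every panel spans the same range of log2 signal; in dnj-26 the low MV arrays lie at 11.23 and 11.24 and the high MV arrays at 12.38 and 12.56.

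Among the 27 J protein genes tested, 5 fell, which is 18.5% where 17% of all genes tested fell, and 0 rose, while 3 more with higher and 5 more with lower means reached the adjusted p alone. At an unadjusted p under 0.05 they numbered 15, or 55.6% against 65.6% of all genes tested. Their median fold change was -0.17 on the log2 scale, with 9 higher and 18 lower in low MV worms.

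The largest change of all members was that of dnj-26. Its signal was 11.23 and 11.24 in low MV worms, against 12.38 and 12.56 in high MV worms. Both low MV samples were lower, with a fold change of -1.24 (2.36-fold, SE 0.11, limma adjusted p = 0.00101). For dnj-2 the signal was 11.20 and 11.26 in low MV worms, against 12.05 and 12.29 in high MV worms. The groups were again apart, with a fold change of -0.94 (1.92-fold, SE 0.12, adjusted p = 0.00226), and its other probe gave -0.86.

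For dnj-3 the signal was 11.79 and 11.87 in low MV worms, against 12.47 and 12.52 in high MV worms. The low MV samples were lower by a fold change of -0.66 (1.58-fold, SE 0.09, adjusted p = 0.00313). The gene dnj-21, whose protein resembles the J protein at the import motor of the mitochondrial inner membrane and so is not cytosolic, had a signal of 12.38 and 12.47 in low MV worms, against 13.03 and 13.11 in high MV worms. It fell by 0.64 on the log2 scale (1.56-fold, SE 0.10, adjusted p = 0.00379).

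The dimmest of the 5 was dnj-28, with a signal of 9.03 and 8.79 in low MV worms, against 9.71 and 9.52 in high MV worms. It fell by 0.71 on the log2 scale (1.63-fold, SE 0.13, adjusted p = 0.00716). This call depended on the values used: the fold change was -0.55 with scaling to the 75th percentile, -0.36 with normexp background correction and -0.55 in the deposited log2 table, all under 1.5-fold.

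The J proteins that serve Hsp70 in the cytosol as general partners did not fall. By homology to the human proteins, dnj-12 and dnj-19 encode type A partners and dnj-13 the type B partner known for work with Hsp110 in disaggregation. The dnj-19 signal was 13.79 and 13.73 in low MV worms, against 13.21 and 13.37 in high MV worms. Its fold change of 0.47 (adjusted p = 0.0126) stayed under 1.5-fold. The 6 probes of dnj-19 gave -0.08 to 0.51, and the mean of its probes gave 0.24 (limma adjusted p = 0.0665). The fold change of dnj-12 was 0.16 and that of dnj-13 was -0.03 (95% confidence interval -0.29 to 0.23), and neither reached the adjusted p.

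Other J proteins have roles set by their partners. The fold change was 0.39 (adjusted p = 0.0144) for dnj-14, whose protein is the cysteine string protein of synaptic vesicles. The 6 probes of dnj-14 gave 0.14 to 0.39, and the mean of its probes gave 0.25 (limma adjusted p = 0.0719). The fold change was -0.25 for dnj-25, the auxilin that helps to uncoat clathrin vesicles. For dnj-11, a J protein of the ribosome-bound kind, it was -0.30, and neither of these 2 genes reached the adjusted p. Those of dnj-17, dnj-15, dnj-4 and dnj-30 were -0.42, -0.40, -0.53 and -0.35, all with an adjusted p under 0.05 and all under 1.5-fold. The remaining dnj genes of no class set apart here, dnj-1, dnj-5, dnj-8, dnj-9, dnj-16, dnj-18, dnj-22 and dnj-23, lay between -0.25 and 0.17, and none reached the adjusted p.

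The tested J protein genes assigned here to the endoplasmic reticulum and to mitochondria lay on different sides of 0 under quantile normalization. The 3 tested genes assigned to the reticulum, dnj-7, dnj-27 and dnj-29, had a median of 0.20. Of these 3, 0 passed both thresholds, while dnj-27 reached the adjusted p (0.43, adjusted p = 0.0112). Also assigned to the reticulum, dnj-20 was too dim to be tested, and with no filter on dim probes its fold change was -0.31. The 2 assigned to mitochondria, dnj-10 and dnj-21, had a median of -0.56, with dnj-10 at -0.47 (adjusted p = 0.0309). With spike-in scaling the medians were -0.15 for the reticulum and -1.07 for mitochondria, where the median of all genes was -0.39. Without these 5 tested genes, 2 of the 44 genes left rose and 6 fell, with a median of -0.06. That is 18.2% against 38.6% of all genes tested, and the 44 may still hold genes of other compartments.

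The CCT ring has 8 subunits, each made from its own gene, and all 8 were tested. The subunits did not move together in size. Only cct-3 rose, with a signal of 12.08 and 11.97 in low MV worms, against 11.35 and 10.92 in high MV worms. Both low MV samples were higher, with a fold change of 0.89 (1.85-fold, SE 0.16, limma adjusted p = 0.00727). Its 5 probes gave 0.41 to 0.94, of which 3 passed both thresholds. With scaling to the spike-in probes the fold change was 0.43 (adjusted p = 0.382), and over all alternatives its adjusted p ran between 0.0028 and 0.382.

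The other 7 subunit genes lay between -0.00 (cct-1) and 0.36 (cct-2) on the log2 scale, and none passed. The fold change was 0.30 for cct-5 (adjusted p = 0.0569), 0.31 for cct-8 (adjusted p = 0.306) and 0.36 for cct-2 (adjusted p = 0.155). For cct-2 the signal was 14.66 and 14.57 in low MV worms and 14.52 and 13.99 in high MV worms. The cct-8 signal was 7.82 and 7.75 in low MV worms and 7.83 and 7.10 in high MV worms, near the dim part of the array. In both genes high MV replicate 2 was the low sample, and without high MV replicate 1 their fold changes were 0.63 and 0.68 and passed. When spots with an outlier mark of the scanner software were kept, a brighter probe stood for cct-7. Its fold change was then 0.57 (adjusted p = 0.0058), just under 1.5-fold, in place of 0.07 (adjusted p = 0.569), and the median of the 8 genes was 0.31. Without such spots that median was 0.19, with 7 higher in low MV worms. It was 0.05 with scaling to the 75th percentile, and -0.33 with scaling to the spike-in probes, where the median of all genes was -0.39.

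Of the 6 prefoldin genes, 5 were tested and none passed both thresholds, where 38.6% of all genes tested did. An unadjusted p under 0.05 was found for 2, or 40% against 65.6% of all genes tested. The largest change was that of pfd-4, with a signal of 14.23 and 14.39 in low MV worms, against 14.96 and 14.80 in high MV worms. Both low MV samples were lower, by a fold change of -0.57 (SE 0.11, adjusted p = 0.00892), just under 1.5-fold. Its 3 probes gave -0.91 to -0.57, and the mean of its probes gave -0.71, which passed. It also passed with the 75th percentile (-0.83), spike-in scaling (-1.20), normexp (-0.60) and the deposited table (-0.62), and without high MV replicate 2 or low MV replicate 2 (-0.65 each). Without low MV replicate 1 its adjusted p was 0.0555. The others were pfd-2 at 0.34 (adjusted p = 0.0715), pfd-5 at -0.05, pfd-3 at -0.07 and pfd-1 at -0.12. The median of the 5 was -0.07.

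The 3 genes not tested were dnj-20, dnj-24 and pfd-6. The single probe of dnj-20, a J protein of the endoplasmic reticulum, was dim, at 6.72 and 6.73 in low MV worms and 7.25 and 6.81 in high MV worms, and with no filter on dim probes its fold change was -0.31 (adjusted p = 0.243). The brighter of the dim probes of dnj-24 gave 6.67 and 6.75 in low MV worms and 6.06 and 5.68 in high MV worms, with a fold change of 0.84 (SE 0.16, adjusted p = 0.0258) in that same setting. The probe of pfd-6 carried an outlier mark of the scanner software on low MV replicate 2. With such spots kept, it read 14.36 and 14.50 in low MV worms and 14.73 and 14.86 in high MV worms, a fold change of -0.36 (SE 0.11, adjusted p = 0.0327), under 1.5-fold.

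Different probes of a gene did not always give the same call. Several present probes, 94 in all, were available for 24 of the 49 genes, and 25 genes had 1. The probes of 15 of these 24 genes all had 1 sign, and those of 9 genes had both. Over all present probes of the members, 4 were higher and 18 were lower past both thresholds, where 37.8% of all present probes passed in either direction.

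In 6 genes the brightest probe missed the thresholds and at least 1 dimmer probe passed both, and in each of them that probe was lower in low MV worms. They were dnj-9 (-0.90 to -0.15), dnj-10 (-0.90 to -0.47), dnj-11 (-0.69 to -0.30), dnj-18 (-0.73 to -0.25), pfd-3 (-0.64 to -0.07) and pfd-4 (-0.91 to -0.57). Of the genes that passed, cct-3, chn-1 and dnj-2 had more than 1 probe, and all their probes lay on 1 side of 0.

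**Figure D3:**
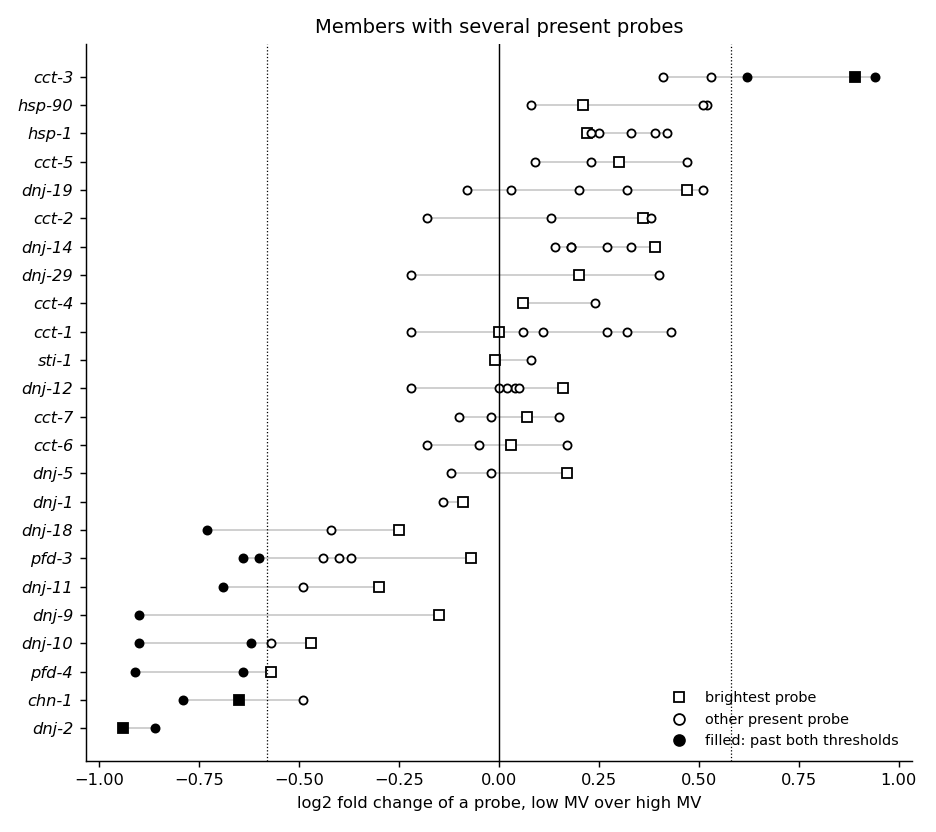
Log2 fold change (x axis, low MV over high MV) of every present probe of the 24 genes with several, 1 row per gene. Squares are the brightest probe, circles the others, filled symbols passed both thresholds and dotted lines mark 0.58 on either side of 0; in pfd-3 the 6 probes lie between -0.64 and -0.07, and in cct-3 the 5 probes lie between 0.41 and 0.94.

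The number of genes past the thresholds changed with the scaling of the arrays. With scaling to the 75th percentile, 2 of the 49 members rose and 11 fell, with a median of -0.26, against -0.02 over all genes tested. Of all 12557 genes tested, 2995 rose and 2546 fell in that setting. With scaling to the spike-in probes, 0 members rose and 14 fell, with a median of -0.63, against -0.39 over all genes tested. Of all genes tested, 937 rose and 2917 fell in this setting. Genes that rose made up 24.3% of these calls, in place of 55.9% under quantile normalization. The 4167 genes tested with a mean signal of 12 or more, the range that holds most members, had a median of -0.07 under quantile normalization, -0.30 with the 75th percentile and -0.67 with the spike-in probes. Under each of these 3 scalings the members' median lay nearer to that of the bright genes than to that of all genes tested. The fold changes of dnj-26, dnj-2, dnj-3, dnj-21, chn-1 and bag-1 were below -0.58 under every scaling and background correction run. Those of dnj-26 lay between -1.74 and -1.22.

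**Figure D4:**
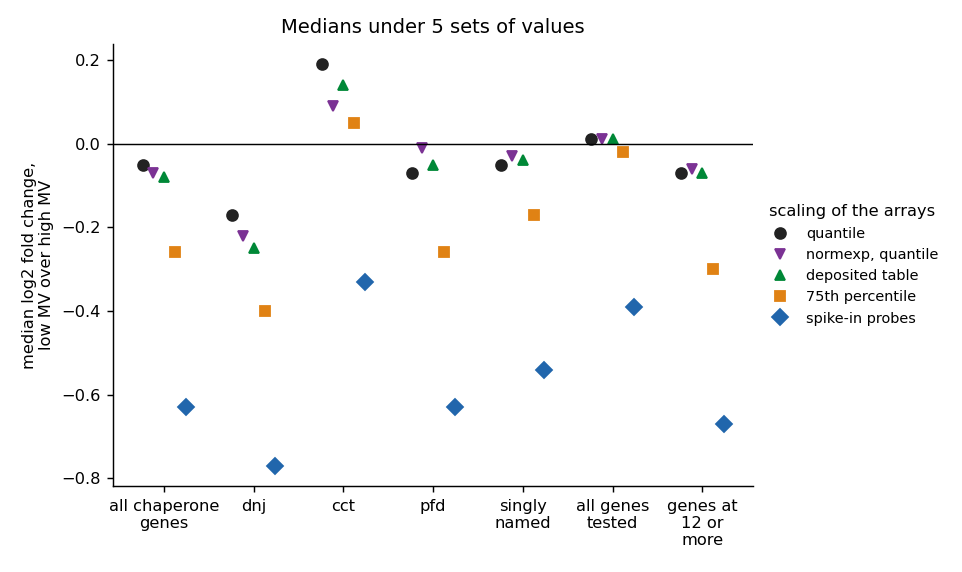
Median log2 fold change (y axis, low MV over high MV) of the members and their classes, of all genes tested and of the genes tested with a mean signal of 12 or more, under 5 sets of values. The median of all 49 members is -0.05 with quantile normalization, -0.26 with scaling to the 75th percentile and -0.63 with scaling to the spike-in probes, and the cct median lies above 0 except with the spike-in probes, where it is -0.33.

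Genes of related function gave counts of their own. Of 14 tested genes for other cytosolic chaperones and co-chaperones, 1 rose and 1 fell, with a median of -0.03. That is 14.3% against 38.6% of all genes tested. The one that fell was daf-41, which encodes the Hsp90 co-chaperone p23, with a signal of 15.90 ± 0.04 in low MV worms and 16.56 ± 0.08 in high MV worms (SD, n = 2 each), a fold change of -0.66 (SE 0.10, limma adjusted p = 0.00358). The one that rose was F44E5.5, an Hsp70 gene of a nearly identical pair, with 13.91 ± 0.25 in low MV worms and 11.80 ± 0.28 in high MV worms (SD, n = 2 each), a fold change of 2.11 (SE 0.19, adjusted p = 0.00107). A probe for this gene can also bind the transcript of its near copy F44E5.4, for which no probe was read here.

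Among the small heat shock proteins, which hold unfolded proteins without ATP, 4 of 11 tested genes rose and 1 fell, or 45.5% against 38.6% of all genes tested. The median of the 11 genes was 0.24. They ran between -1.23 for hsp-12.3 (adjusted p = 0.00597) and 1.57 for hsp-16.1 (adjusted p = 0.00086), a gene with an identical copy that its probe cannot tell apart. Of 8 chaperones of the endoplasmic reticulum and mitochondria, 1 rose and 1 fell, or 25% against 38.6% of all genes tested, with a median of 0.15. The one that rose was hsp-3, an Hsp70 of the reticulum (0.91, adjusted p = 0.00233), and the one that fell was hsp-60, the mitochondrial chaperonin (-0.60, adjusted p = 0.0326).

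Of 33 proteasome subunit genes, 4 fell and 0 rose, with a median of -0.15 and a range between -0.86 (pas-7) and 0.53 (rpn-2), and 14 had an unadjusted p under 0.05. Of 63 cytosolic ribosomal protein genes, 1 rose and 0 fell, or 1.59% against the same 38.6%. Their median was 0.03, with a range between -0.46 (rpl-29) and 0.89 (rpl-11.2). An unadjusted p under 0.05 was found for 10, or 15.9% against 65.6%.

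**Figure D5:**
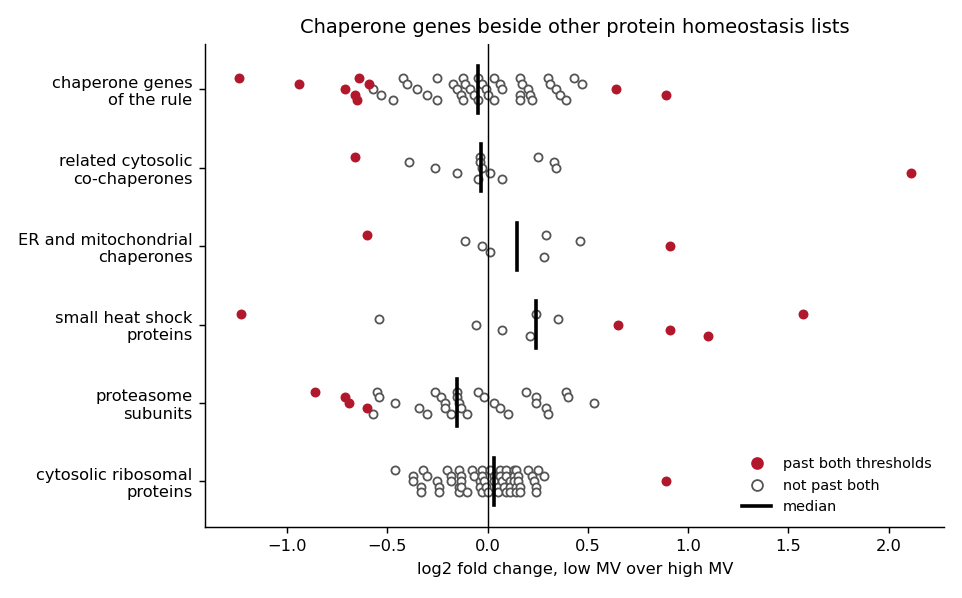
Log2 fold change (x axis, low MV over high MV) of each tested gene of the chaperone rule and of 5 related lists, with the median of each list as a bar. Filled points passed both thresholds; F44E5.5 at 2.11 and hsp-16.1 at 1.57 lie to the right of every member, and cytosolic ribosomal protein genes lie between -0.46 and 0.89.

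Markers of the tissues of the worm also differed between the groups. Over all genes tested, 21.6% rose, 17% fell and 65.6% had an unadjusted p under 0.05. Of 9 body wall muscle markers 5 fell, with a median of -0.92, and mean signals over the list of 10.04 and 9.44 in low MV worms and 10.58 and 10.63 in high MV worms. Of 9 neuron markers 4 rose, with a median of 0.46, and means of 10.50 and 10.46 in low MV worms and 9.92 and 10.14 in high MV worms. Of 9 epidermis and cuticle markers 5 rose and 1 fell, with a median of 0.98, and means of 10.25 and 9.92 in low MV worms and 9.35 and 9.29 in high MV worms.

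Of 17 germline and oocyte markers 1 fell, with a median of -0.09, and means of 14.59 and 14.46 in low MV worms and 14.80 and 14.52 in high MV worms. Of 9 intestine markers 1 fell, with a median of 0.27, and means of 13.021 and 12.302 in low MV worms and 12.548 and 12.558 in high MV worms. Of 8 early zygotic markers 2 rose and 3 fell, with a median of -0.13. The 23 msp sperm markers had means of 8.96 and 7.25 in low MV worms and 9.07 and 11.54 in high MV worms. High MV replicate 2 stood above the other samples and low MV replicate 2 below them. All 23 had lower means in low MV worms, with a median of -2.21. Of these markers, 0 passed both thresholds and 7 had an unadjusted p under 0.05. The part of these tissue differences in the changes of the chaperone genes was not tested.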

How the data were processed

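Cy3-labelled RNA from 2 samples per group was hybridised to Agilent C. elegans arrays. The authors deposited spot intensity values from Feature Extraction 11.5.1.1, and a table of log2 values made by quantile normalization of the median spot brightness, which a rebuild matched to within 5e-09. The deposited intensity after background subtraction was used here: log2 values of the 43803 non-control spots were quantile normalized, 77 probes with an outlier mark on any array were left out, and spots of a probe were averaged. Present probes lay above the crossing of a 2-component Gaussian mixture (6.85 to 6.87). Of 28477 probe names, 22716 matched RefSeq's gene table (assembly WBcel235), 635 kept their sequence name, and 8029 probes named no gene. Start positions in that table gave the order of the neighbouring genes on chromosome IV.

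The low MV and high MV arrays were set against each other in limma 3.58.1 (R 4.3.3), with Benjamini-Hochberg adjustment over 12557 genes. Exact permutation of 2 against 2 arrays cannot give a two-sided p below 0.333, so no such test is given. Precision is limited by the number of arrays. On simulated data of this comparison, with 200 of 12557 genes changed, 96% of 2-fold and 100% of 4-fold changes were recovered, with 25 false calls. The simulation had no slide effect, and it changed a smaller share of genes than the 38.6% called here. It held no change under 2-fold, so it does not measure the recovery of changes between 1.5-fold and 2-fold. Other steps used Python 3.11.15 with scikit-learn 1.9.0.

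The members and gene lists were chosen with earlier results of these data known. Genes named with values on each array are the 9 singly named members, each dnj, cct or pfd gene past both thresholds, and the largest change of a class with none; dnj-19, cct-2, cct-8 and the 3 genes not tested were added after their values were seen. Of each related list the highest and lowest genes are named.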

Additional observations from a re-analysis of the deposited data

How the results depend on the processing

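Other settings tried were arrays scaled to their 75th percentile or to 8 of 10 spike-in probes, normexp background correction (offset 50, on the median spot brightness), dim probes kept, a filter on spots well above background instead, the log2 table as deposited, the mean of a gene's present probes, a trended and robust variance prior, a 2-fold threshold, the methods' t-test, the replicate block, each array left out and, chosen after seeing the data, outlier-marked spots kept. A slide block was not run, because each slide held 1 group. Where 1 array is left out, the array that remains in its group is assumed to vary like the other group. The cause of the changes below was not tested.

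Of 12557 genes, 2713 rose; 937 did with spike-in scaling, 1533 with normexp, 4191 with no filter, 4251 with the filter on spots well above background, 1248 at 2-fold and 789 by the methods' t-test after Benjamini-Hochberg adjustment. Against 2136 genes that fell, 2546 did with the 75th percentile and 2917 with spike-in scaling. With normexp 1303 fell, at 2-fold 889 and by that adjusted t-test 758. Of the members, against 2 that rose, 0 did with spike-in scaling, 1 with normexp, 0 at 2-fold, 1 by the unadjusted methods' t-test and 0 by the adjusted one, and 3 with no filter or with the filter on spots well above background, where dnj-24 is tested. Against 7 that fell, 11 did with the 75th percentile, 14 with spike-in scaling, 1 at 2-fold and 3 by the adjusted t-test.

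Medians with the 75th percentile were -0.26 for all members, -0.40 for dnj, 0.05 for cct, -0.26 for pfd and -0.17 for the singly named genes. With spike-in scaling they were -0.63, -0.77, -0.33, -0.63 and -0.54 in the same order, and with the mean of the probes the dnj median was -0.25. With 1 array left out, 2660 to 2797 genes rose and 2000 to 2298 fell, and 2 to 3 members rose and 7 to 9 fell. Medians ran from -0.08 to -0.04 for all members, -0.24 to -0.11 for dnj, 0.07 to 0.21 for cct, -0.12 to -0.04 for pfd and -0.07 to 0.04 for the singly named genes.

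Members whose sign turned had not passed the test, and among them only dnj-14, dnj-19 and dnj-27 had reached the adjusted p. In the deposited table the members that turned were cct-4 (-0.08), dnj-8 (-0.06), pfd-5 (0.03) and sti-1 (0.03). With normexp they were cct-4 (-0.08), dnj-8 (-0.05), pfd-5 (0.03) and sti-1 (0.02). With the mean of the probes they were cct-1 (0.14), cct-6 (-0.01) and sti-1 (0.04). With the 75th percentile they were cct-4 (-0.21), cct-6 (-0.26), dnj-12 (-0.08), dnj-23 (-0.14), dnj-5 (-0.08) and dnj-8 (-0.23). With spike-in scaling they were cct-2 (-0.29), cct-4 (-0.58), cct-5 (-0.33), cct-6 (-0.63), cct-7 (-0.32), dnj-12 (-0.45), dnj-14 (-0.06), dnj-19 (-0.18), dnj-23 (-0.52), dnj-27 (-0.15), dnj-29 (-0.29), dnj-5 (-0.45), dnj-8 (-0.61), hsp-1 (-0.21), hsp-90 (-0.15) and pfd-2 (-0.24). With 1 array left out, ranges that cross 0 were cct-1 (-0.05 to 0.04), cct-6 (-0.01 to 0.08), cct-7 (-0.01 to 0.16), cct-8 (-0.05 to 0.68), dnj-13 (-0.10 to 0.03), dnj-16 (-0.26 to 0.03), hsp-110 (-0.14 to 0.04), pfd-5 (-0.12 to 0.01) and sti-1 (-0.22 to 0.20).

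Beside the changes given in the report, dnj-4, dnj-15, dnj-17 and dnj-30 passed with the 75th percentile and with spike-in scaling, dnj-11 and dnj-18 with spike-in scaling, dnj-10 in the deposited table (-0.58), with the mean of the probes (-0.64) and without low MV replicate 1 (-0.61), and dnj-4 without low MV replicate 2 (-0.60). The falls with the 75th percentile and spike-in scaling also count pfd-4 (-0.83 and -1.20). By the adjusted t-test bag-1, cct-3, dnj-2, dnj-21, dnj-28 and hsp-70 no longer passed. Same-numbered samples did not deviate together (correlation of deviations over genes -0.00186). That value alone cannot show whether same-numbered samples were handled as pairs. With the replicate block 2741 genes rose and 2142 fell, and 2 members rose and 7 fell.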

Other observations

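The genes dnj-2 and pfd-4 lie near each other on chromosome IV, in a stretch of 9 neighbouring genes of the RefSeq table that also holds dnj-1. In their order, the log2 fold changes (low MV over high MV) were -0.64 for B0035.15, -0.09 for dnj-1, -1.90 for B0035.13, 0.43 for znf-207, -0.94 for dnj-2, -0.69 for B0035.3, -0.57 for pfd-4 and -0.64 for gspd-1, which encodes an enzyme that makes NADPH. B0035.22, between B0035.3 and pfd-4, was not tested. In limma's test over all genes, B0035.15 (adjusted p = 0.00365), B0035.13 (adjusted p = 0.00178), dnj-2 (adjusted p = 0.00226), B0035.3 (adjusted p = 0.00253) and gspd-1 (adjusted p = 0.00374) fell in low MV worms. The stretch was looked at after the values of dnj-2 and pfd-4 were known.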
